A study of Mus musculus with 16 samples.

Results

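Spp1 (ENSMUSG00000029304), Gtsf1 (ENSMUSG00000022487) and Nrn1 (ENSMUSG00000039114) are 3 genes that had been put forward as markers of the left ventricle in these hearts, and they make up 3 of the 37991 genes of the deposited count table. They were found by matching the Ensembl identifiers of the table to their symbols, and all 3 matched. RNA-seq was done on the left (LV) and the right ventricle (RV) of 8 mouse embryos on a C57BL/6 background, which gave 16 libraries. The HLHS group holds 3 embryos with hypoplastic left heart syndrome, a malformation in which the left side of the heart is too small, with 1 embryo from each litter: a litter of embryonic day E13.5, a litter of E14.5 and a litter of E17.5. The control group holds 5 littermates: 1 comes from the E13.5 litter and 2 from each of the later litters. The labels give the phenotype and not the mutation behind it. Each stage is 1 litter, so that stage and litter cannot be told apart. Control embryos are numbered replicate 1 (E13.5), 2 and 3 (E14.5) and 4 and 5 (E17.5), and HLHS embryos replicate 1 (E13.5), 2 (E14.5) and 3 (E17.5). All 3 genes were chosen by their higher read counts in the left than in the right ventricles of these same libraries, so their differences between the ventricles are described here and not tested.

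Spp1 encodes osteopontin, a secreted phosphoprotein of bone matrix, activated macrophages and injured heart muscle that binds integrins and CD44. Gtsf1 encodes a small zinc finger protein that works with PIWI proteins in piRNA-guided silencing of transposons in germ cells. Nrn1 encodes neuritin, a membrane-anchored protein induced by electrical activity in neurons that promotes the growth of their processes. The left ventricle is built mainly from the first heart field, where the transcription factor Hand1 is active, and the right ventricle mainly from the second heart field.

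Levels are given as CPM, read counts normalised to library size, and were not compared between genes. Library totals ran from 17081273 to 28648645 reads. The 7 cardiomyocyte markers (Tnnt2, Actn2, Ttn, Myh6, Myh7, Myl2 and Ryr2) summed to between 18684 and 32946 CPM, and none of the 7 was at 0. The lowest sum was in the left ventricle of control replicate 3, and the next, 19086 CPM, in the HLHS right ventricle at E14.5. The other control left ventricles held 21056 CPM or more. By the count of the Y-linked gene Ddx3y, control replicates 1, 3 and 4 and HLHS replicate 3 were male, so the E17.5 embryo was the only male of the 3 with HLHS. The left ventricle of control replicate 3 stood apart for Spp1, and the main fitted Spp1 differences that rest on it are given with and without it. Other Spp1 results are given with it only. Among them are the rank, the mean ratio, the order of the levels, the fit with a sex term and the correlations with the other members. Less RNA per cell and fewer cells of a type cannot be told apart in whole ventricles.

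Of the 3 genes, 2 matched an entry in a table of RefSeq promoters, Spp1 and Gtsf1, and these are shown because both genes were much higher in 1 ventricle than in the other. Each is the 250 bases before the start of the gene, 5′ to 3′ on the gene's own strand, in build GRCm38.p6. That of Spp1, the first of 2 starts listed, lies at chr5:104434861-104435110 on the plus strand and that of Gtsf1 at chr15:103430428-103430677 on the minus strand. Capitals mark the matches to any of 7 motifs searched on both strands.
Spp1: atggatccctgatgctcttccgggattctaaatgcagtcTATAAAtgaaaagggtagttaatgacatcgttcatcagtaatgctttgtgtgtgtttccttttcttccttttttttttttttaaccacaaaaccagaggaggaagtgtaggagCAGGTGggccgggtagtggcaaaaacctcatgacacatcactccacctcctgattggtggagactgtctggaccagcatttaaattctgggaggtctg
Gtsf1: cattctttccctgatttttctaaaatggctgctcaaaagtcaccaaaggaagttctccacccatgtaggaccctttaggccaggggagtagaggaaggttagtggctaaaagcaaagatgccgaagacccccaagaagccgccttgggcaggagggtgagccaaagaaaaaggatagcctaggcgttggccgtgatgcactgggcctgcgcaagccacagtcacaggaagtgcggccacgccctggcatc
The Spp1 promoter held the letters of a TATA box (TATAAA, found in 12.4% of the 32851 promoters of the table) 211 bases before the start, far upstream of where such a box acts, and an E-box (CANNTG, found in 66.2%) 98 bases before it, the motif of basic helix-loop-helix factors such as Hand1. The Gtsf1 promoter held none of the 7. The other motifs were the T-box core GGTGTG (in 16.3% of all promoters), the Nkx2-5 motif TNAAGTG (10.1%), GATAA (22.6%), the AP-1 site TGANTCA (6.75%) and the cAMP response element TGACGTCA (1.55%). The GC content was 43.6% for Spp1 and 54.4% for Gtsf1.

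All 3 genes were higher in the left than in the right ventricle of the same embryo in 5 of 5 control hearts and in 3 of 3 HLHS hearts. In edgeR fits with the embryo as a block, 6.1% of the 16238 genes tested in controls passed an adjusted p of 0.05, 2.09% higher and 4.01% lower on the left. In HLHS hearts 4.04% of the 15771 genes tested passed, 1.15% higher and 2.89% lower. Nothing is read from the 3 members against these shares, since the side difference is what chose them. Among all genes tested, the control left-right difference of Spp1 was the highest (rank 1), with Gtsf1 at rank 4 and Nrn1 at rank 7. In HLHS hearts the ranks were 5, 16 and 8.

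In control left ventricles Spp1 stood at 17.4 CPM in replicate 1, 17.4 in replicate 2, 159 in replicate 3, 16.0 in replicate 4 and 5.86 in replicate 5. In the right ventricles of the same embryos it stood at 2.93, 2.16, 4.14, 0.675 and 0.867 CPM. Every control left library was above every control right one, and replicate 3 was far above the other 4 left libraries. In HLHS hearts Spp1 stood at 3.11, 16.0 and 33.4 CPM on the left (in order of stage) and at 0.798, 2.49 and 2.53 CPM on the right. The lowest HLHS left level, at E13.5, lay within the range of the control right ventricles but above all HLHS right ventricles.

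The left-to-right ratio of Spp1 varied more between embryos than that of the other 2 genes. It was 5.92 at E13.5 (95% counting interval 4.40 to 7.98), 8.07 and 38.3 in the 2 controls at E14.5, and 23.8 and 6.76 in the 2 controls at E17.5. In HLHS hearts it was 3.90 (2.24 to 6.80), 6.43 and 13.2. The highest ratio came from the embryo with the highest left level, whereas the ratio of 23.8 came from the embryo with the lowest right level, 17 reads. The mean log2 ratio was 3.63 ± 1.21 (SD, n = 5) in controls and 2.79 ± 0.88 (SD, n = 3) in HLHS hearts, and these ranges overlapped. The fitted left-right difference was 3.89 ± 0.36 (log2, SE) in controls, 3.15 without control replicate 3, and 3.00 ± 0.28 in HLHS hearts.

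Gtsf1 ran more evenly. In control left ventricles it stood at 25.9 CPM (replicate 1), 26.7 and 32.1 (replicates 2 and 3), and 14.3 and 12.2 (replicates 4 and 5), and in the right ventricles of the same embryos at 3.75, 3.12, 3.61, 1.79 and 3.09 CPM. In HLHS hearts it stood at 17.9, 10.8 and 3.59 CPM on the left and at 1.81, 2.81 and 0.857 CPM on the right, in order of stage. In either group the lowest left level was above the highest right level, but the HLHS left ventricle at E17.5 lay within the range of the control right ventricles. The ratio was 6.91, 8.57, 8.87, 8.01 and 3.94 in control replicates 1 to 5, and 9.90, 3.85 and 4.19 in the HLHS hearts. The mean log2 ratio was 2.80 ± 0.48 (SD, n = 5) in controls and 2.44 ± 0.75 (SD, n = 3) in HLHS hearts, and the fitted differences were 2.79 ± 0.15 and 2.45 ± 0.27 (log2, SE).

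Nrn1 had the narrowest spread in controls. It stood at 8.68, 6.39, 7.47, 10.9 and 7.53 CPM in the left ventricles of control replicates 1 to 5 and at 1.70, 1.19, 1.89, 2.78 and 1.43 CPM in the right ones. In HLHS hearts it stood at 16.5, 19.2 and 18.7 CPM on the left and at 1.54, 2.42 and 4.32 CPM on the right. Each HLHS left ventricle was above each control left ventricle, and no left library fell to the level of a right one. The ratio was 5.11, 5.37, 3.96, 3.91 and 5.26 in controls and 10.7, 7.92 and 4.33 in HLHS hearts, falling over the 3 HLHS embryos as the right level rose. The mean log2 ratio was 2.22 ± 0.23 (SD, n = 5) in controls and 2.84 ± 0.67 (SD, n = 3) in HLHS hearts, and the fitted differences were 2.17 ± 0.12 and 2.77 ± 0.23 (log2, SE).

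**Figure D1:**
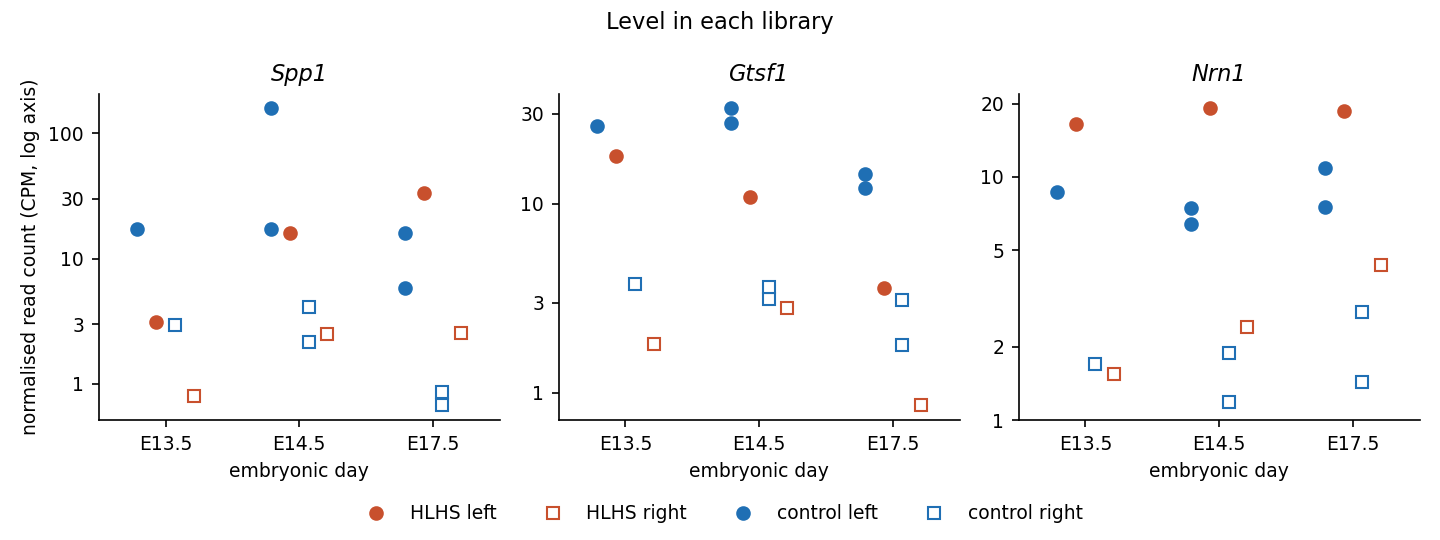
Level of each gene in all 16 libraries, in CPM on a log axis, by embryonic day; filled circles are left and open squares right ventricles, blue controls and red HLHS. Nrn1 is higher in the 3 HLHS left ventricles (16.5 to 19.2 CPM) than in the 5 control ones (6.39 to 10.9 CPM), and 1 control left ventricle at E14.5 stands apart for Spp1 at 159 CPM.

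**Figure D2:**
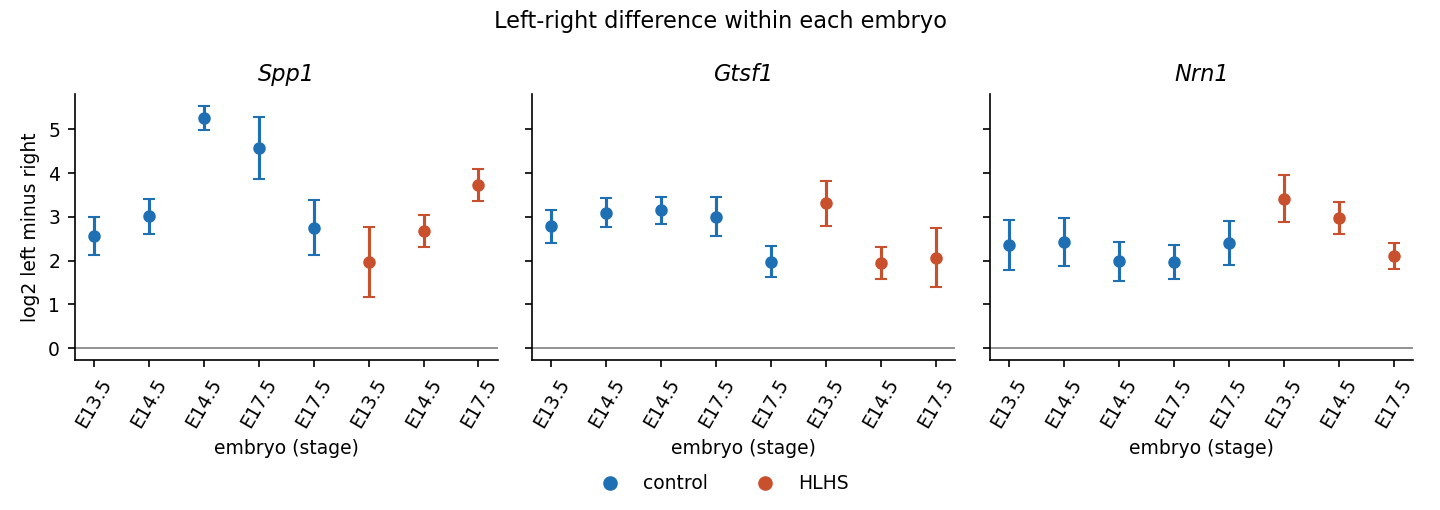
Log2 ratio of the left to the right level within each of the 8 embryos, by embryonic day; bars are 95% counting intervals, blue controls and red HLHS. All 24 ratios lie above 0; for Spp1 the linear ratio runs from 3.90 to 38.3.

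The order of the levels over the 12 combinations of phenotype, side and stage differed between the genes. For Spp1 the control left ventricles at E14.5 came first, but their 2 values, 17.4 and 159 CPM, lay on both sides of the next group, the HLHS left ventricle at E17.5 (33.4 CPM). For Gtsf1 the control left ventricles at E14.5 and E13.5 came first and the HLHS right ventricle at E17.5 last, and the HLHS left ventricle at E14.5 (10.8 CPM) was next below the control left ventricles at E17.5 (12.2 and 14.3 CPM). For Nrn1 the 3 HLHS left ventricles came first, ahead of all control left ventricles, which ran from 7.53 to 10.9 CPM at E17.5, around the 8.68 at E13.5, and lay lower at E14.5, from 6.39 to 7.47 CPM. Most groups hold 1 library, so neighbours within such an order have no spread of their own.

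The mean side difference in HLHS minus that in controls was -0.77 ± 0.62 for Spp1 (-0.13 without control replicate 3), -0.36 ± 0.34 for Gtsf1 and 0.57 ± 0.27 for Nrn1 (log2 and SE, from 1 fit to the 16 libraries that blocks on the embryo). It holds the difference that chose the genes and is given with no test. With 1 embryo left out at a time, that of Gtsf1 ran from -0.81 (without HLHS replicate 1) to 0.04 (without HLHS replicate 2) and that of Nrn1 from 0.34 (without HLHS replicate 1) to 0.98 (without HLHS replicate 3). Of all 16508 genes tested, 0.0182% passed.

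Whether HLHS changed the genes was asked within each ventricle, with littermates compared by a stage term, and 2 of the 3 genes were called in the left ventricle. The levels compared here, and between stages below, also entered the choice of the genes. The p-values do not allow for that choice. Gtsf1 was 2.42-fold lower and Nrn1 2.27-fold higher in HLHS than in control left ventricles. For Gtsf1 the fitted difference was -1.28 ± 0.21 (log2, SE; edgeR quasi-likelihood, adjusted p = 0.00561), and for Nrn1 it was 1.18 ± 0.14 (adjusted p = 0.00174). Of the 15979 genes tested, 12.8% passed, 6.17% higher and 6.61% lower in HLHS. The HLHS level of Gtsf1 was below every littermate in each of the 3 litters, with a log2 difference of -0.53, -1.44 and -1.88 in order of stage, and that of Nrn1 was above every littermate, with 0.93, 1.47 and 1.05. Left out 1 at a time, no embryo ended either call, with values from -1.61 to -1.01 and from 1.00 to 1.28. In the same comparison 4 of 5 red blood cell markers rose (summed level 50.2 to 263.6 CPM in HLHS and 21.3 to 131 CPM in controls) and 3 of 6 fibroblast markers fell (1478 to 1931 CPM and 1779 to 2492 CPM). Of 6 smooth muscle and pericyte markers 2 rose and 1 fell (1703 to 3043 CPM and 1476 to 1709 CPM). Of 7 endothelium and endocardium markers 1 rose and 2 fell (829 to 1106 CPM and 1067 to 1215 CPM). In the atrial, epicardium and neuron lists 1 marker each rose, and in the cardiomyocyte list 1 fell. The part of these cells in the 2 changes was not tested.

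Spp1 did not pass in the left ventricle, at -0.63 ± 0.95 (log2, SE; edgeR adjusted p = 0.71), and its sign turned with the litter and with single libraries. HLHS minus littermate control on the log2 scale was -2.48 in the E13.5 litter, -1.71 in that of E14.5 and 1.78 in that of E17.5. Without control replicate 3 the fitted value was 0.16, and without HLHS replicate 3 it was -2.44 (adjusted p = 0.0906). In a fit with a separate HLHS term for E17.5, added after these values were seen, the HLHS effect at E17.5 minus that at the earlier stages was 4.08 ± 1.27 on the left (edgeR adjusted p = 0.177) and 2.53 ± 0.65 on the right (edgeR adjusted p = 0.712). Neither passed with all libraries, and the left value was 2.73 without control replicate 3. Without control replicate 2 both did, at 4.64 (adjusted p = 0.0241) and 2.85 (adjusted p = 0.0446), and each E17.5 effect rests on 1 HLHS embryo. Of all genes tested, 0.556% passed on the left and 0.00599% on the right in this fit.

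The sex read from Ddx3y moved with Spp1. In the left ventricle each male was above each female of its litter: 17.4 against 3.11 CPM at E13.5, 159 against 16.0 and 17.4 at E14.5, and 16.0 and 33.4 against 5.86 at E17.5. In the right ventricle this held at E13.5 and E14.5 but not at E17.5. With a sex term, added after these values were seen, the HLHS difference of Spp1 on the left became 0.12 ± 0.28 (log2, SE; edgeR adjusted p = 0.816), while Gtsf1 stayed at -1.31 ± 0.22 (adjusted p = 0.00848) and Nrn1 at 1.24 ± 0.14 (adjusted p = 0.00213). At E13.5 the male was the control and the female the HLHS embryo, so sex and phenotype cannot be told apart there, and 1 of the 2 females at E14.5 had HLHS. Since the HLHS embryo at E17.5 was the only male with HLHS, its sex and its stage cannot be told apart.

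In the right ventricle none of the 3 genes passed, against 6.61% of the 16142 genes tested (3.56% higher and 3.05% lower). Gtsf1 was at -0.83 ± 0.27 (log2, SE; edgeR adjusted p = 0.0946), Nrn1 at 0.66 ± 0.27 (adjusted p = 0.18) and Spp1 at 0.07 ± 0.48 (adjusted p = 0.95). By unadjusted p under 0.05, 2 of the 3 passed (Gtsf1 at 0.0115 and Nrn1 at 0.0367), as did 3795 of the 16142 genes, and DESeq2 called none. Gtsf1 was below every littermate in each litter, at -1.05, -0.26 and -1.46, whereas Nrn1 went -0.14, 0.69 and 1.12 from E13.5 to E17.5. Nrn1 passed with the sex term, at 0.83 ± 0.19 (adjusted p = 0.0438), and Gtsf1 with no count filter, at -0.82 (adjusted p = 0.0243). Whether the HLHS effect of a gene on the left differed from that on the right is the side comparison above and was not tested.

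**Figure D3:**
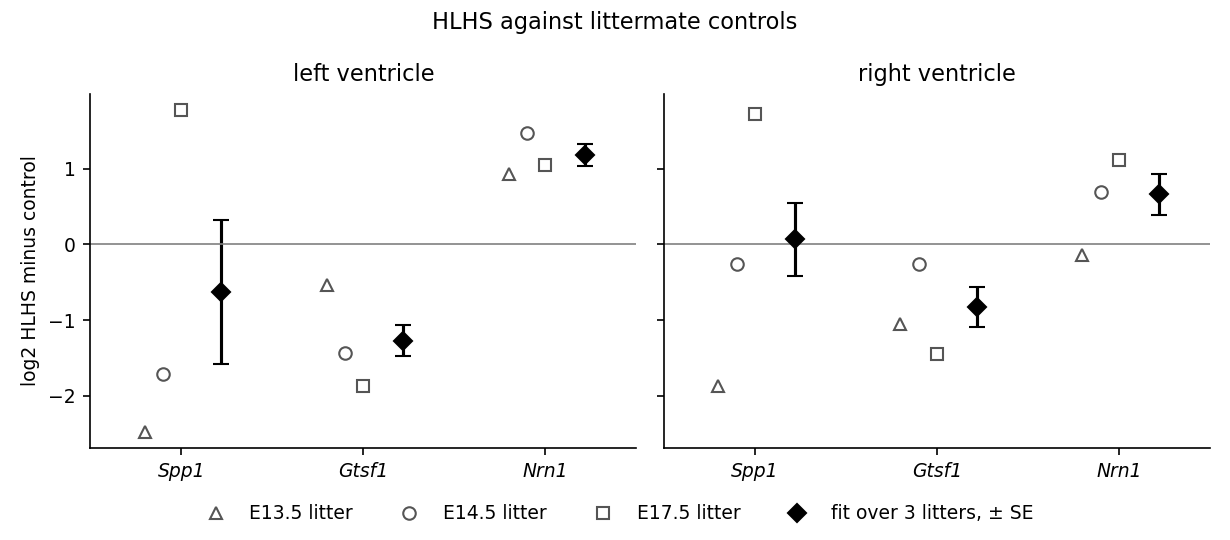
HLHS minus littermate control on the log2 scale in the left and right ventricle; small symbols are the 3 litters (triangle E13.5, circle E14.5, square E17.5) and diamonds the fitted value with its SE. Gtsf1 lies below 0 and Nrn1 above 0 in all 3 litters on the left, whereas Spp1 runs from -2.48 to 1.78.

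With age, the changes were compared between 2 control embryos at E17.5 and 2 at E14.5, which come from 1 litter each. Gtsf1 fell in the left ventricle, by 1.16 ± 0.12 (log2, SE; edgeR adjusted p = 3.45e-04), which is 2.24-fold, from 26.7 and 32.1 to 14.3 and 12.2 CPM. Spp1 fell in both ventricles. On the left the change was -3.02 ± 0.88 (adjusted p = 0.0292), but it was -0.70 without control replicate 3 (adjusted p = 0.0848) and the call was also lost without replicate 5 (adjusted p = 0.137) and with DESeq2 (adjusted p = 0.0955). On the right it was -2.03 ± 0.37 (adjusted p = 0.0131), 4.09-fold, from 2.16 and 4.14 to 0.675 and 0.867 CPM, which do not overlap. Nrn1 did not pass in either ventricle, at 0.39 ± 0.18 (adjusted p = 0.126) on the left, where it passed without control replicate 5 at 0.64 (adjusted p = 0.0274), and 0.43 ± 0.38 (adjusted p = 0.451) on the right, nor did Gtsf1 on the right, at -0.48 ± 0.28 (adjusted p = 0.264).

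Among cell type markers 6 of 7 cardiomyocyte markers rose in the left ventricle over these stages, where 35.8% of all genes were called. Of 5 conduction system markers 3 fell and 1 rose, of 5 atrial markers 3 fell, of 6 fibroblast markers 3 rose, and of 6 smooth muscle and pericyte markers 3 rose and 2 fell. Of 5 red blood cell markers 2 fell, and of 5 cartilage and bone markers 2 rose and 1 fell. Of 3 liver markers 1 rose. The liver markers summed to 13.2 CPM in the left ventricle of control replicate 5 and to 0.305 to 0.434 CPM in the other control left ventricles. The part of these cell types in the stage changes was not tested. In all, 2 of the 3 genes were called lower at E17.5 on the left, where 35.8% of the 16276 genes tested passed (19.6% higher and 16.2% lower), and 1 of 3 on the right, where 17.4% of 16500 passed (9.26% higher and 8.18% lower). The left-right difference itself, at E17.5 minus that at E14.5, was -0.79 ± 0.78 for Spp1, -0.67 ± 0.27 for Gtsf1 and -0.01 ± 0.25 for Nrn1 (log2, SE). It is built from the side differences that chose the genes and is given with no test. Of the 16757 genes fitted, 5.14% passed (3.82% toward the left and 1.32% toward the right at E17.5). Single embryos moved these values: that of Spp1 was -1.45 without control replicate 2 and 0.73 without replicate 3, and that of Gtsf1 was -1.14 without replicate 4 and -0.11 without replicate 5.

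The library with the highest Spp1 was also high in genes known from activated macrophages. Against replicate 2, the other control left ventricle of that litter, Spp1 was 9.12-fold higher in replicate 3. Only 4 Y-linked genes among the 12696 compared were higher by more, and 9 genes in all were at least 4-fold higher. The next were Gpnmb, a glycoprotein of lysosome-rich macrophages (54.4 against 8.35 CPM), Lgals3, galectin-3 (25.4 against 4.22 CPM), the macrophage elastase Mmp12 (8.92 against 1.53 CPM) and the interleukin-1 receptor antagonist Il1rn (5.43 against 0.843 CPM). Itgax, the lysosomal protease Ctss and the class II invariant chain Cd74 were also higher, at 4.55 against 0.964, 37.9 against 10.9 and 7.33 against 1.89 CPM. Gm49339, a gene with no symbol and Slc15a2 ranked between Il1rn and Itgax and were not taken. The 7 genes from Gpnmb to Cd74 were picked after their values were seen. Their high sum in that library thus follows in part from the choice.

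Summed over these 7 genes, that library held 144 CPM, the other control left ventricles 22.8 to 41.7, the HLHS left ventricles 11.9, 28.6 and 53.9 (in order of stage) and all right ventricles 9.42 to 24.1. The HLHS left ventricles thus ranked the same way for this sum as for Spp1, but Ctss and Cd74 alone were highest at E14.5. For a list of 8 general macrophage markers (Adgre1, Csf1r, C1qa, C1qb, Fcgr1, Mrc1, Cd68 and Lyz2) the sum was 199.6 CPM in that library, the highest of the 16. It ran from 97.9 CPM upward in control left, from 98.3 to 126.8 in control right and from 104 to 156 in HLHS right ventricles, with none of the 8 at 0 in a whole group. In the HLHS left ventricles it was 99.8, 148 and 114 CPM in order of stage, highest at E14.5, whereas Spp1 was highest at E17.5. Between the sides of control hearts 2.09% of all genes were called higher and 4.01% lower on the left, and 1.15% and 2.89% in HLHS hearts. The median side difference of the 8 was 0.29 (log2, left minus right) in controls, beside -0.01 for all genes. In HLHS hearts it was -0.04, beside 0.01. Of the 8, 0 were called higher and 1 lower on the left in controls, Mrc1 at -0.27 ± 0.06 (log2, SE). In HLHS hearts 1 was higher, Lyz2 (0.65 ± 0.14), and 1 lower, Mrc1 (-0.60 ± 0.12). In HLHS against control left ventricles none of the 8 was called. Between E14.5 and E17.5 on the left, 1 rose and 3 fell, among them Cd68 (-1.42 ± 0.31) and Lyz2 (-0.79 ± 0.20), in a comparison that called 35.8% of all genes. The median change of the 8 there was -0.74 (log2), beside -0.01 for all genes. The part of macrophages in the Spp1 values was not tested.

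**Figure D4:**
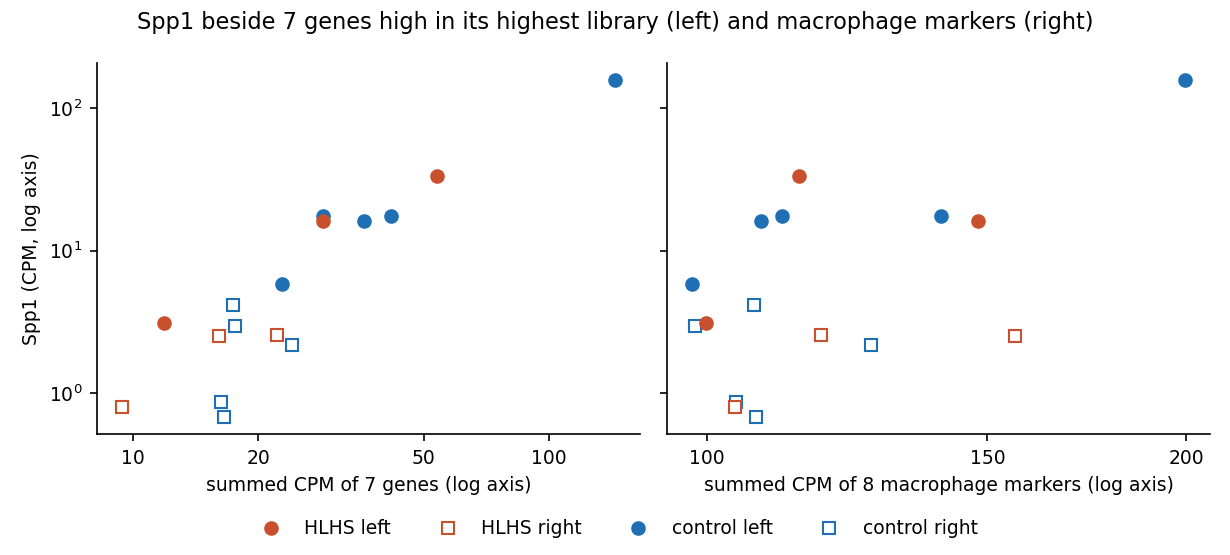
Spp1 in each of the 16 libraries (CPM, log axis) against the summed CPM (log axis) of 7 genes that were high in the library with the most Spp1, picked after their values were seen, and of 8 macrophage markers; filled circles are left and open squares right ventricles, blue controls and red HLHS. The library with 159 CPM of Spp1 has the highest sum in either panel, 144 and 199.6 CPM.

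Of 10 genes for osteopontin receptors, all tested, 5 rose and 0 fell in HLHS left ventricles, where 6.17% of all genes rose and 6.61% fell, with a median of 0.30 (log2) beside 0.01 for all genes tested. They were the integrin subunits Itga9 (0.93 ± 0.15), Itgb5 (0.49 ± 0.05), Itgb3 (0.49 ± 0.12) and Itga5 (0.40 ± 0.07) and the hyaluronan receptor Cd44 (0.58 ± 0.08). In the right ventricle, where 3.56% of all genes rose, 2 of 10 did, Itgav (0.60 ± 0.08) and Itgb5 (0.47 ± 0.06). In control hearts, where 2.09% of all genes were higher and 4.01% lower on the left, none of the 10 was higher. Itga9 (-0.54 ± 0.08) and Itgb5 (-0.24 ± 0.05) were lower on the left. Between E14.5 and E17.5 in the left ventricle 1 rose, Itgb6, and 4 fell, Itgav, Itgb5, Itga4 and Cd44, where 19.6% of all genes rose and 16.2% fell.

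Of 6 genes for enzymes that modify or cut osteopontin, 3 passed the count filter, and 2 of them rose in HLHS left ventricles, where 6.17% of all genes rose. They were the secretory kinase Fam20c (0.45 ± 0.09) and the transglutaminase Tgm2 (0.47 ± 0.13). Tgm2 was lower on the left in controls (-0.43 ± 0.06). The 4 genes of the osteopontin family of bone proteins, Ibsp, Dmp1, Dspp and Mepe, did not pass the filter and summed to at most 0.163 CPM in a library.

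Of 20 genes of the piRNA pathway, in which Gtsf1 works, 12 passed the count filter, and 0 rose and 3 fell in HLHS left ventricles, where 6.61% of all genes fell, with a median of -0.29 (log2) beside 0.01 for all genes. They were Mov10l1 (-0.78 ± 0.06), an RNA helicase gene that also has a heart isoform, the Tudor domain gene Tdrd12 (-0.83 ± 0.17) and the mitochondrial phospholipase gene Pld6 (-0.71 ± 0.18). On the right, where 3.05% of all genes fell, 2 of the 12 did, Mov10l1 and Tdrkh. Mov10l1 was also the only one of the 12 called higher on the left in controls, by 0.27 ± 0.06, where 2.09% of all genes were. Between E14.5 and E17.5 in control left ventricles, where Gtsf1 fell, 3 of 12 tested rose and 1 fell. Their median was -0.49 (log2) beside -0.01 for all genes, of which 19.6% rose and 16.2% fell. The PIWI genes were at most 0.0532 CPM for Piwil1, 1.12 for Piwil2 and 0.217 for Piwil4, and the paralogs of Gtsf1 at most 0.0427 CPM for Gtsf1l and 0.271 for Gtsf2. The 4 germ cell markers (Ddx4, Dazl, Dppa3 and Nanos3) summed to 2.00 to 3.97 CPM over the 16 libraries, none of the 4 was at 0 in a whole group, and none was called in any HLHS or side comparison.

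Around Nrn1, the related gene Nrn1l was at 0 in every left ventricle and at most 0.0586 CPM on the right. Of 12 other genes induced by activity in neurons, 10 passed the filter and 2 rose in HLHS left ventricles, where 6.17% of all genes rose. They were the immediate early genes Fosb (1.30 ± 0.33) and Junb (0.44 ± 0.10), and the median of the 10 was 0.12 (log2) beside 0.01 for all genes. None was called in the right ventricle or between the sides of control hearts. The 7 markers of neurons and Schwann cells summed to 15.3 to 19.8 CPM in control left, 17.3 to 22.7 in control right, 17.9 to 23.2 in HLHS left and 22.9 to 24.7 in HLHS right ventricles, so they were not higher on the left, and none was at 0 in a whole group. Of the 5 tested, 1 rose in HLHS left ventricles, Stmn2 (0.94 ± 0.17), beside the same 6.17% of all genes. The part of these cells in the rise of Nrn1 was not tested.

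Of 17 transcription factors of heart chambers, 4 were higher and 3 lower on the left in controls, where 2.09% of all genes were higher and 4.01% lower. Hand1 was at 2.44 ± 0.10 and the second heart field gene Isl1 at -5.68 ± 0.66 (log2, SE). The size of the Isl1 value rests on counts near 0. Isl1 was at most 0.0543 CPM in control left and 0.0586 to 3.38 CPM in control right ventricles. Tbx5 (0.44 ± 0.10), Irx3 (0.35 ± 0.06) and Cited1 (0.61 ± 0.06) were higher and Hand2 (-0.34 ± 0.04) and Tbx3 (-0.72 ± 0.17) lower. In HLHS hearts Hand1 was 2.32 ± 0.13 higher on the left. In HLHS against control left ventricles 0 of the 16 tested rose and 3 fell, where 6.17% of all genes rose and 6.61% fell. The 3 were Mef2c (-0.22 ± 0.05), Hey2 (-0.27 ± 0.06) and Cited1 (-0.41 ± 0.08), and Hand1 was at -0.25 ± 0.09 (edgeR adjusted p = 0.104). In control left ventricles Hand1 was lower by 0.70 (log2) at E17.5 than at E14.5, a comparison that called 16.2% of all genes lower. A link of Hand1 to the fall of Gtsf1 was not tested.

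The genes whose levels were most like those of each member were taken by Pearson's r of log2 CPM over the 16 libraries, among 11593 other genes and with no test, since the libraries share side, stage and litter. For Spp1 they were Lgals3 (r = 0.895), Vrk1 (0.881), Gpnmb (0.862), Esrrg (0.853) and Pde3b (0.819). Without control replicate 3 on the left, the r of Lgals3 and Gpnmb was 0.83 and 0.79, and that of Esrrg was 0.877. For Gtsf1 they were the connexin gene Gja5 (0.951), Hand1 (0.916), the axon guidance gene Ntn1 (0.91), Abcc4 (0.887) and BB218582 (0.885). For Nrn1 they were the T-box gene Tbx18 (0.88), Ccdc34 (0.857), Ipo5 (0.852), Gemin6 (0.849) and Brip1 (0.844). Between the sides of controls Hand1 differed by 2.44 (log2), Gja5, 1 of 5 conduction system markers of which 1 was called higher and 3 lower on the left, by 1.31 and Tbx18 by 0.68.

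Within a ventricle the 3 members did not run together. Over the 16 libraries the r of log2 CPM was 0.725 for Spp1 with Gtsf1, 0.683 for Spp1 with Nrn1 and 0.61 for Gtsf1 with Nrn1, values that hold the side difference they were chosen for. Over the 8 left libraries alone it was 0.125, -0.231 and -0.697, and over the 8 right libraries 0.273, 0.118 and -0.758. The negative value for Gtsf1 with Nrn1 is over libraries that share the HLHS and stage differences given above.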

How the data were processed

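RNA-seq was done on both ventricles of 8 mouse embryos, with libraries made with a TruSeq kit per the labels. The authors deposited 1 table of raw counts, with a value for each gene and library. Per the submitters' processing notes the mouse build was mm9, and the tools were edgeR 3.4.2, HTSeq 0.5.4p5, Picard and TopHat2 2.0.9. The strand setting is not given in the sources used here. Reads of Nrn1 and of genes overlapping it on the other strand, and of Spp1 and a gene model overlapping it, may not be separable. Comparisons by the authors were not analysed here. Symbols matched 32919 of the 37991 genes (86.6%), and no count column was left unmapped.

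The members and the gene lists were chosen with earlier results of these data known. Groups, sides, stages and embryos come from the labels, and p-values measure the spread between embryos. No 2 libraries of a group agreed within sampling noise (26 pairs, lowest chi-square per degree of freedom 7.01). Same-embryo ventricles deviated together from their group means, with an r across genes of 0.628 to 0.863 in controls and 0.529 to 0.808 in HLHS hearts, against at most 0.601 and 0.0766 for different embryos. Deviations from a group mean also hold stage and litter, and each HLHS embryo is the only HLHS embryo of its litter. In HLHS hearts the higher r within an embryo thus cannot be told apart from stage or litter. The pairing comes from the labels.

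Counts were fitted in R 4.3.3 with the quasi-likelihood test of edgeR 4.0.16 (glmQLFit, glmQLFTest) after TMM scaling and its filterByExpr filter (at least 10 counts, 15 in total), and p-values were Benjamini-Hochberg adjusted over all genes tested, with a threshold of 0.05. The SE of a log2 fold change is its size over the square root of F. Side comparisons had the embryo as a block and, their change with stage included, are given for the 3 members with no test. HLHS comparisons had stage, which is the litter. CPM uses TMM factors over all libraries, and likeness used log2 CPM with a prior count of 2 among genes with an average of at least 2. Ratios carry 95% intervals that cover counting error only. Named genes are the 3 members, pathway list genes past the threshold and the 5 genes most like each member. Not every list gene that the rule takes is named. The fits were tested on simulated data. Alternatives were DESeq2 1.42.0, its size factors, no count filter, no block, summed ventricles, leaving out embryos in turn and, added after seeing the data, a sex term.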

Additional observations from a re-analysis of the deposited data

Results flagged for a closer look

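The left ventricle of control replicate 3 (E14.5) held Spp1 at 159 CPM, and the nearest of the other 4 control left ventricles held 17.4 CPM. The gap took 0.924 of the range of the group, above the critical value of Dixon's test at the 95% level. Dixon's test was run on 9 groups of values, and chance picks out about 1 in 20 groups.

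The HLHS effect on Spp1 in the left ventricle at E17.5 minus that at E13.5 and E14.5 was 4.08 on the log2 scale. It was picked out because the HLHS left ventricles at E13.5 and E14.5 lay below their littermates and that at E17.5 above its littermates. Its test did not pass (edgeR adjusted p = 0.177), and it rests on 1 HLHS embryo at E17.5.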

How the results depend on the processing

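Of 263 alternatives for the 3 genes, 236 kept the call and direction or, for the side differences that were compared by size alone, moved by less than the spread between embryos. Among these, the HLHS effect on the side difference of Gtsf1 turned to 0.04 without HLHS replicate 2. Of 101 alternatives for the number of genes called, 45 stayed within 1.5 times. The values below are those that did not, with the cause not tested beyond what each setting changes. The E14.5 and E17.5 comparisons rest on 2 embryos against 2, the HLHS comparisons on 3 against 5, and the right-sided counts of Spp1, 15 to 103 reads, limit its ratios.

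Most counts of calls changed without the pairing by embryo or litter. Without the replicate block, HLHS minus control on the left was -1.03 for Gtsf1 (edgeR adjusted p = 0.617) and 1.16 for Nrn1 (adjusted p = 0.112), and Spp1 on the right was -0.13. The genes called fell from 990 to 32 between the sides of controls, from 637 to 4 between those of HLHS hearts, from 3 to 0 for the HLHS effect on the side difference (309 by unadjusted p), from 2043 to 1 for HLHS on the left, from 1067 to 0 on the right (1321 by unadjusted p) and from 862 to 0 for the change of the side difference with stage (1808 by unadjusted p).

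With no count filter Gtsf1 passed for HLHS on the right (-0.82), Nrn1 for stage on the left (0.41) and Spp1 for the E17.5 minus earlier HLHS effect on the left (4.08, adjusted p = 2.19e-07). The genes called were then 1570 and 1309 between the sides of control and HLHS hearts, 217 for the HLHS effect on the side difference, 1720 for HLHS on the right, 524 for the change of the side difference with stage, and 785 (left) and 24 (right) for the E17.5 minus earlier effect, against 92 and 1. DESeq2 gave -3.0 for Spp1 with stage on the left. It called 132 genes for the HLHS effect on the side difference, 3839 for stage on the left (5830 with edgeR), 146 for the change of the side difference, and 354 and 22 for the E17.5 minus earlier effect. With both ventricles of an embryo summed, Gtsf1 passed for stage at -1.13, and 5013 genes were called (2878 on the right alone). With the sex term Spp1 for HLHS on the left was 0.12, Nrn1 on the right passed at 0.83, and 601 genes were called on the right.

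Leaving out 1 embryo or library at a time gave ranges for Spp1 of -2.44 to 0.37 (HLHS, left), -0.82 to 0.60 (HLHS, right), -3.92 to -0.70 (stage, left), -1.81 to 0.73 (change of the side difference), 2.73 to 4.96 and 2.05 to 3.56 (E17.5 minus earlier, left and right, with no value without the E17.5 HLHS embryo). For Nrn1 the ranges were 0.11 to 0.64 (stage, left), -0.12 to 0.83 (stage, right) and -0.30 to 0.21 (change of the side difference). Genes called ranged from 486 to 883 (sides, control), 270 to 1117 (sides, HLHS), 0 to 135 (HLHS effect on the side difference), 845 to 2309 and 195 to 1518 (HLHS, left and right), 1190 to 3378 (stage, right), 26 to 2050 (change of the side difference), and 0 to 312 and 0 to 12 (E17.5 minus earlier, left and right).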
